A study of Mus musculus with 2 samples.

Results

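The genes described here carry names of the nucleolus and of ribosome assembly. They were taken by symbol alone: the Nop, Nol, Utp and Rrp series, the Polr1 subunits of RNA polymerase I, and Fbl, Dkc1, Ncl, Npm1, Bop1, Pes1, Gar1 and Nhp2. This gave 111 probe sets of 50 genes, out of 45101 probe sets on each array and 18193 genes with a probe set of their own. The values are from cells of mouse hair follicles, sorted from the back skin of CD-1 pups at postnatal day 4. All pups carried K14-RFP, a red reporter under the keratin 14 promoter of basal keratinocytes, and Sox9-EGFP, a green reporter for the follicle stem cell factor Sox9. Early bulge cells, from the forming stem cell niche of the follicle, were gated as high for both green and red fluorescence. Cells of the non-bulge outer root sheath (ORS), the outer epithelial layer of the follicle, were gated as high for red without green fluorescence. This second sort is thus defined by the absence of the Sox9 reporter and not by a marker of its own. The sorts left out dead cells and, by side scatter, large differentiated ones, and the number of pups behind each is not stated in the labels. Each population was measured on 1 Affymetrix array, so there is no replicate check on any ratio and no p-value is given.

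Ribosomes are built in the nucleolus. RNA polymerase I transcribes a long precursor of the ribosomal RNAs, guide ribonucleoproteins modify it, and assembly factors fold and cut it while ribosomal proteins join, which gives the small and the large subunit. Growing and dividing cells make many ribosomes, and the transcription factor Myc is a known activator of many of these genes.

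Nearly all of these genes had a lower signal in early bulge than in ORS cells, mostly by less than 2-fold. Ratios are early bulge over ORS on the log2 scale, and a gene is represented by its probe set with the highest mean signal. A signal of 57.8, the 40th percentile of all signals, served as a floor below which values were not ordered, and a gene was measured when at least 1 array reached it. Of the 50 genes 49 were measured, and 44 of these were lower in early bulge, against 47.0% of all 13252 measured genes. The median log2 ratio was -0.56 with quartiles of -0.75 and -0.29, whereas all measured genes had a median of 0.04 and quartiles of -0.30 and 0.41. At 1.5-fold, 22 were lower and 2 higher in early bulge, where 12.8% of all measured genes were lower and 17.1% higher. At 2-fold the counts were 3 and 1, against 4.78% and 7.30% of all measured genes. Centring the arrays on their medians moved the median of all genes to -0.17 and their shares at 1.5-fold to 21.0% lower and 11.3% higher, with the median of the nucleolar genes at -0.78, a gap of -0.61 in place of -0.60. In sorted populations measured in bulk, fewer cells that express a gene and less RNA of it per cell cannot be told apart.

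**Figure D1:**
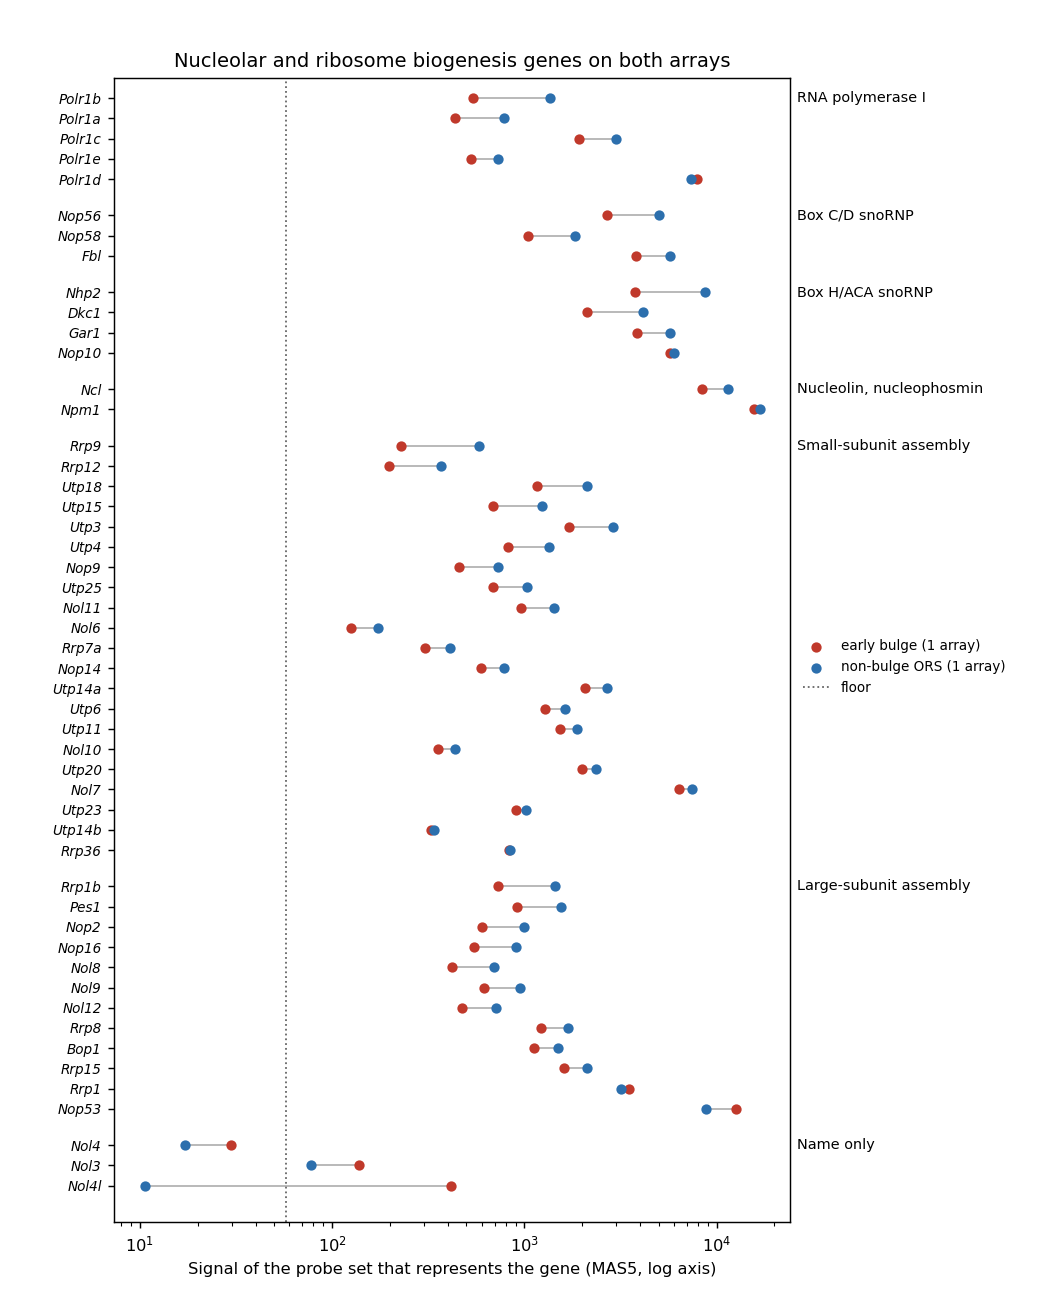
Signal of each of the 50 genes on the early bulge array (red) and the non-bulge ORS array (blue), on a log axis, by role; the line joins both signals of a gene and the dotted line is the floor of 57.8. Of the 49 measured genes 44 have the red point on the left, and the exceptions are Polr1d, Rrp1, Nop53, Nol3 and Nol4l.

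Of the 5 genes of RNA polymerase I subunits on this list, 4 had a lower signal in early bulge, 3 of these by 1.5-fold or more (median log2 ratio -0.63). Polr1b, the second largest subunit, had a signal of 538.8 in early bulge and 1365 in ORS. This 2.53-fold lower signal rests on a single probe set. It was as low as that of Rrp9, a gene of small-subunit assembly, and these were the lowest ratios among the 49 genes; after loess scaling Rrp9 was the lower of both, at -1.40 on the log2 scale against -1.31 for Polr1b. Polr1a, the largest, catalytic subunit, had 435.7 in early bulge and 787.3 in ORS (log2 ratio -0.85). All 3 of its measured probe sets were lower, the weakest at -0.40, but the mean over its 5 probe sets, 2 of them under the floor, was 0.17. Polr1c, which RNA polymerase III shares, had 1935 in early bulge and 2991 in ORS (-0.63), and Polr1e, a subunit particular to polymerase I, had 526 in early bulge and 727 in ORS (-0.47). The probe set behind this value carries a suffix for probes that may match other sequences. The other probe set of Polr1e has none, and with 251.5 in early bulge and 543.2 in ORS it was 2.16-fold lower (-1.11). Polr1d, the other subunit shared with RNA polymerase III, stood apart from these. It had 7893 in early bulge and 7360 in ORS, and its 4 probe sets ran from -0.35 to 0.60, so they did not settle a direction. After median centring it was lower in early bulge.

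Genes of both kinds of guide ribonucleoprotein had a lower RNA signal in early bulge, and the particles themselves were not measured. Box C/D particles methylate ribosomal RNA and box H/ACA particles turn uridines into pseudouridines. The genes of the 3 box C/D core proteins on this list, which is not the whole complex, were all lower by at least 1.5-fold. Nop56 had 2705 in early bulge and 5039 in ORS (-0.90), and its paralogue Nop58 had 1046 in early bulge and 1828 in ORS (-0.81). Fbl, fibrillarin, the methyltransferase of the particle, had 3804 in early bulge and 5749 in ORS (-0.60), and its other probe set gave -0.69. Every probe set of these 3 genes was thus lower, and their ratios lay close together.

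The genes of the 4 box H/ACA proteins all had a lower signal in early bulge, but by unequal amounts. Nhp2 had 3778 in early bulge and 8731 in ORS, 2.31-fold lower, and its second probe set gave -1.10 on the log2 scale. Dkc1, dyskerin, the pseudouridine synthase of the particle that also binds telomerase RNA, had 2119 in early bulge and 4154 in ORS (-0.97). Its 3 probe sets ran from -1.13 to -0.78, all lower. Gar1 had 3875 in early bulge and 5728 in ORS (-0.56). The smallest ratio was that of Nop10, with 5701 in early bulge and 6008 in ORS (-0.08), although its second probe set, with 987.3 in early bulge and 1473 in ORS, gave -0.58.

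Nucleolin and nucleophosmin are abundant nucleolar proteins that chaperone ribosomal RNA and particles. Their genes differed by less than 1.5-fold on the probe sets that represent them, and by more on others. Ncl had 8359 in early bulge and 11422 in ORS (-0.45), and its other 4 probe sets gave -0.64, -0.83, -1.15 and -1.19. Npm1 had 15613 in early bulge and 16747 in ORS (-0.10), whereas its second probe set, with 3967 in early bulge and 7541 in ORS, gave -0.93. For both genes the probe set with the highest signal gave the ratio nearest to 0. This held in only 11 of the 31 genes with several measured probe sets, so it was not the rule.

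All 21 genes of small-subunit assembly had a lower signal in early bulge, 8 of these by 1.5-fold or more (median -0.43). Rrp9, which binds the U3 guide RNA that starts the processing of small-subunit RNA, had 228.6 in early bulge and 578.8 in ORS. This was 2.53-fold lower, on 1 probe set. Rrp12, an export factor of the pre-ribosomal particles, had 198.5 in early bulge and 366.8 in ORS (-0.89). Utp18 had 1161 in early bulge and 2113 in ORS (-0.86), Utp15 had 687.2 in early bulge and 1234 in ORS (-0.84), and Utp3 had 1702 in early bulge and 2881 in ORS (-0.76). These are parts of the processome, the large complex that assembles on the nascent small-subunit RNA, and their signals differed by 1.69-fold to 1.82-fold. Utp4, Nop9 and Utp25 lay between -0.71 and -0.59. Nol11, Nol6, Rrp7a, Nop14, Utp14a, Utp6 and Utp11 followed between -0.57 and -0.30, and Nol10, Utp20, Nol7, Utp23, Utp14b and Rrp36 between -0.29 and -0.02. Rrp36 was at 0.01 after loess scaling, so it had no settled direction. In 3 of these genes the probe sets opposed each other by more than 1.5-fold. Nol11 ran from -0.86 to 0.09 over 4 probe sets, Utp14a from -0.38 to 0.38 over 2 and Utp23 from -0.50 to 0.11 over 4. Utp14b is a retrogene copy of Utp14a, so the ratios of both are uncertain.

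Large-subunit assembly held both lower and higher genes. Of 12 genes 10 were lower in early bulge, 6 of these by 1.5-fold or more (median -0.60). Rrp1b had 732.2 in early bulge and 1435 in ORS (-0.97), with probe sets from -0.97 to -0.04. Pes1 and Bop1 form one complex that is needed to process large-subunit RNA. Pes1 had 917.9 in early bulge and 1548 in ORS (-0.75), and Bop1 had 1119 in early bulge and 1493 in ORS (-0.42). Both probe sets of each were lower. Nop2, a methyltransferase of large-subunit RNA, Nop16 and Nol8 lay at -0.73 to -0.72, and Nol9, a kinase that acts on RNA ends during processing of the spacer, at -0.62. Nol12, Rrp8 and Rrp15 lay between -0.58 and -0.40. The exceptions were Rrp1 and Nop53. Rrp1 had 3489 in early bulge and 3165 in ORS (0.14), and was lower in early bulge after median centring (-0.08). Nop53, which recruits the nuclear exosome to the large subunit and is also known to influence p53 through a ribosomal protein, had 12542 in early bulge and 8826 in ORS (0.51). All 3 of its probe sets were higher in early bulge, from 0.12 to 0.61, and it was higher under every setting tried.

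Nol3, Nol4 and Nol4l share only the prefix of the name. Nol3 is an inhibitor of apoptosis, and the other two have no established role in ribosome synthesis. Nol3 had 137.3 in early bulge and 77.6 in ORS, and 1 of its 2 probe sets was measured. Nol4l had 415.3 in early bulge and 10.7 in ORS, which is under the floor, so it was at least 7.18-fold higher in early bulge. A second measured probe set of Nol4l gave a bound of 0.80 on the log2 scale. Nol4 was under the floor on both arrays and is the gene not measured. Both genes at least 1.5-fold higher in early bulge were therefore of this kind, and without the name-only genes 44 of 47 were lower, with a median of -0.57.

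**Figure D2:**
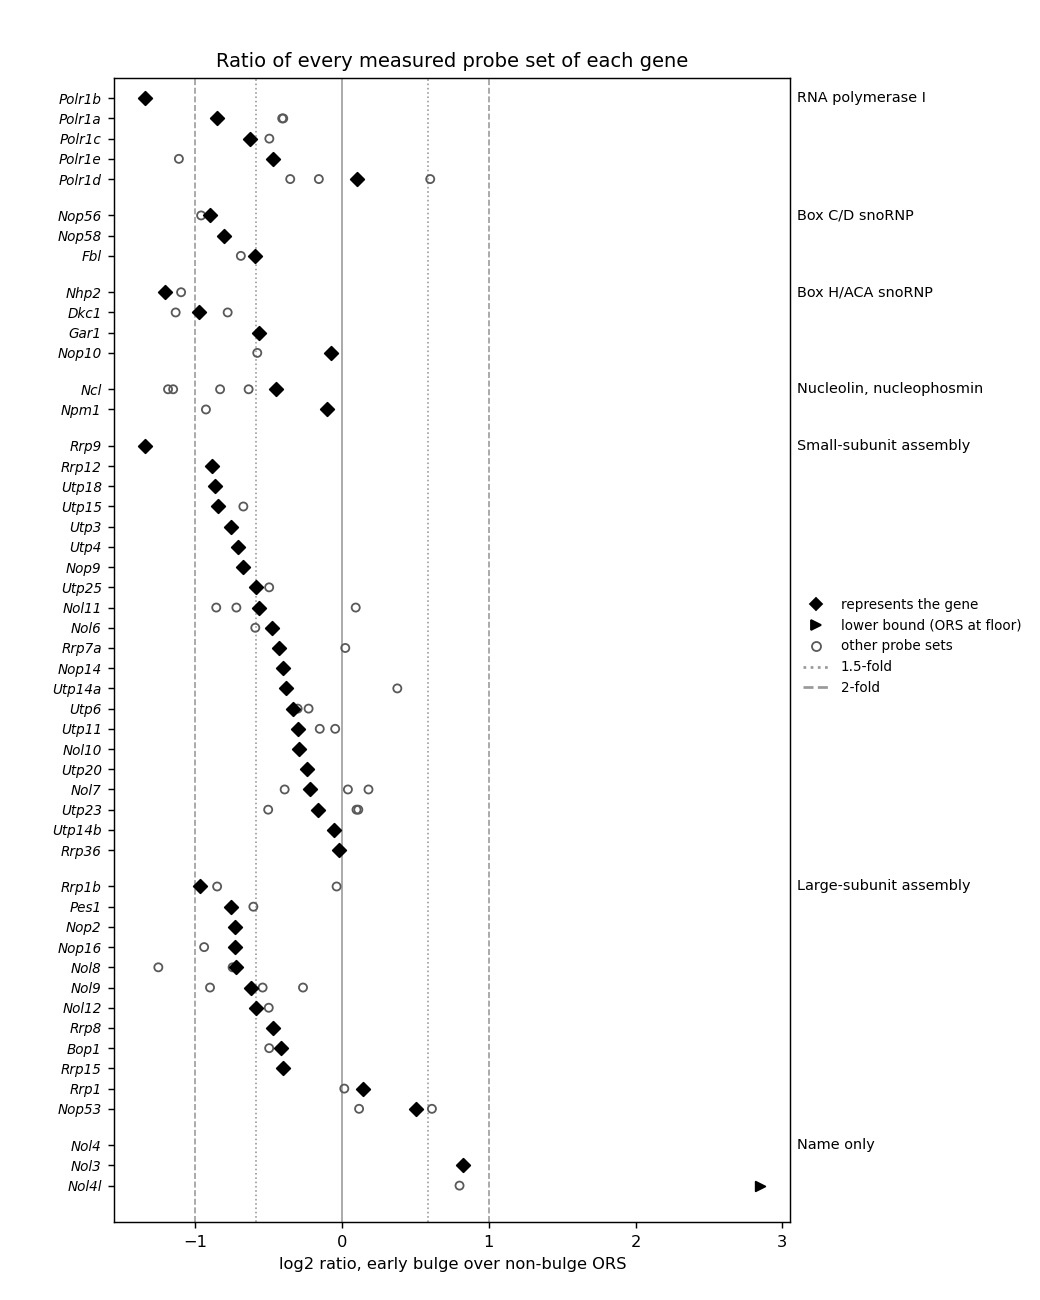
The log2 ratio, early bulge over non-bulge ORS, of each measured probe set, with genes by role; filled symbols are the probe sets that represent the genes, open circles the others, and the triangle is a lower bound. Most symbols lie left of 0, and the probe sets of Polr1d, Nol11, Utp14a, Nol7, Utp23 and Rrp7a fall on both sides.

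Probe sets of one gene give the only technical spread in these data, and it says nothing of the spread between animals. Of the 111 probe sets 100 were measured and 83 of them were lower in early bulge, against 46.5% of all 24133 measured probe sets. Among the 31 genes with several measured probe sets, 22 had all of them lower, 3 had all of them higher and 6 had both directions. This count was not made over all genes, so it has no share to be set against. The SD of 1 log2 ratio, from 79 pairs of probe sets of one gene, was 0.34 on the log2 scale, while over all genes it was 0.41. The ratios of single genes near 0 therefore lay within this spread. Those of Polr1b and Rrp9, picked as the lowest of the measured genes, were over 3 times as large as either SD. Each of these rests on 1 probe set, so its own spread was not measured.

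Most other genes of the pathway were lower in early bulge too. From lists of 126 symbols outside the name rule, 119 genes were measured and 110 were lower in early bulge, 41 of these by 1.5-fold or more and 9 by 2-fold or more, with none 1.5-fold higher. Their median log2 ratio was -0.50. Of all measured genes 47.0% were lower, 12.8% by 1.5-fold or more and 4.78% by 2-fold or more, and 17.1% were 1.5-fold higher. Among 13 polymerase I factors 11 were lower, but only 2 by 1.5-fold (15.4%, near the share of all measured genes), and the median was -0.33. Those were Nolc1, with 1883 in early bulge and 4181 in ORS (-1.15), and its partner Tcof1, treacle, with 679.3 in early bulge and 1389 in ORS (-1.03). Both genes link polymerase I to the guide particles, and all probe sets of each were near or beyond 2-fold. Baz2a, which silences ribosomal DNA, followed at -0.56. The basal factor Ubtf, named here after its value was seen, was at 0.16. Its 2 probe sets ran from -0.13 to 0.16, so they did not settle a direction. Further polymerase I subunits, listed as Cd3eap, Twistnb and Znrd1, were at -0.33, -0.31 and -0.03.

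Further assembly factors of the small subunit were lower in 33 of 34 genes, 14 of these by 1.5-fold or more (median -0.52). Tbl3, a processome protein, had 550.6 in early bulge and 1158 in ORS (-1.07). Pno1, an RNA-binding factor of late small-subunit particles, was at -0.99, and Wdr43 at -0.98. For the large subunit 40 of 44 were lower, 15 of these by 1.5-fold or more (median -0.52). Gnl3, nucleostemin, a nucleolar GTPase known from stem and cancer cells, had 2599 in early bulge and 5556 in ORS (-1.10). The helicase Ddx18 was at -1.04, and Rpf2, which brings in the small RNA of the large subunit, at -1.08, although another probe set of Rpf2 gave 0.28. All 9 assembly factors of guide particles were lower, 4 of these by 1.5-fold or more (median -0.45). The ATPase Ruvbl2 had 1133 in early bulge and 2331 in ORS (-1.04), its partner Ruvbl1 was at -0.71 and the dyskerin chaperone Shq1 at -0.76. Among nucleases that trim precursor RNA 17 of 19 were lower, 6 of these by 1.5-fold or more (median -0.38). Here the exosome nuclease Dis3 had 1305 in early bulge and 2914 in ORS (-1.16), the exosome subunit Exosc5 was at -1.11 and Rpp40, of the RNase P and MRP particles, at -0.87. In the order given, the shares at least 1.5-fold lower were 41.2%, 34.1%, 44.4% and 31.6%, against 12.8% of all measured genes. Each of these lists had a median on the same side as the nucleolar genes. The lists were chosen with earlier results of these data known, so they are no independent check.

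Genes of ribosomal proteins, which the assembly factors handle, differed by class. Of 47 measured genes of cytosolic ribosomal proteins 12 were lower in early bulge, 2 of these by 1.5-fold or more (median 0.14). Many of them have near-identical copies, so single ratios of that class are uncertain. Of 76 mitochondrial ribosomal protein genes 70 were lower, 13 of these by 1.5-fold or more (median -0.36). The shares at 1.5-fold were 4.3% of the cytosolic and 17.1% of the mitochondrial class. Of all measured genes 12.8% were lower by that fold and 47.0% by any amount, so the mitochondrial share at 1.5-fold was near that of all genes. The medians of both classes were not recomputed after median centring, which moved that of all genes from 0.04 to -0.17, so their signs may depend on the scaling. The median of the nucleolar genes, -0.56, was lower than that of either class on these arrays, and with 1 array a group the difference was not tested.

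**Figure D3:**
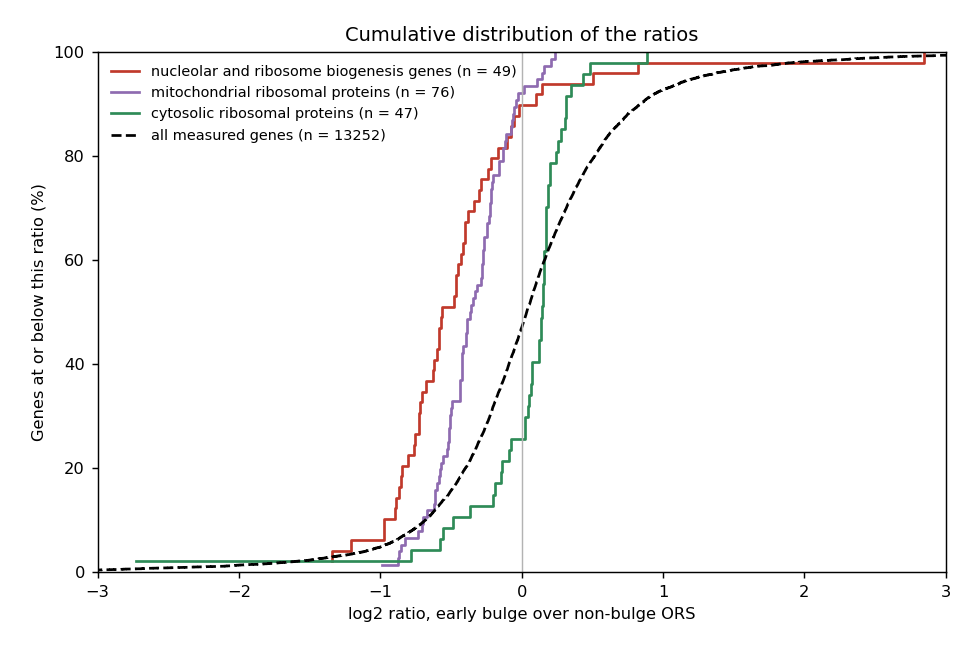
Cumulative share of genes (percent) by log2 ratio, early bulge over non-bulge ORS, for the 49 measured nucleolar and ribosome biogenesis genes, 76 mitochondrial and 47 cytosolic ribosomal protein genes and all 13252 measured genes; ratios beyond 3 either way are not shown. The curve of the nucleolar genes reaches its middle at -0.56 and that of all genes at 0.04.

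The Myc genes had ratios in both directions. Myc had 1566 in early bulge and 994.4 in ORS (0.66). Mycn had 1558 in early bulge and 3567 in ORS (-1.20), but its 3 probe sets ran up to 0.82. Mycl had 58.7 in early bulge, close to the floor, and 1489 in ORS (-4.67). The canonical binding sequence of Myc and its partners is CACGTG, which is its own reverse complement, so a search of one strand covers both. In the RefSeq promoter windows of build GRCm38.p6, which reach from 250 bases before to 50 bases after a start, 39 of the 50 genes had an entry. Of these, 9 (23.1%) held CACGTG in at least 1 window, against 11.4% of 10607 measured genes and 8.09% of all 27025 genes with an entry. Counted by window, 11 of their 46 windows (23.9%) held it, against 7.15% of all 32851 windows. The 9 genes with it had a median log2 ratio of -0.59 and the 30 measured genes without it one of -0.60. Genes with no entry, Fbl, Npm1 and Bop1 among them, were not searched. A match to CACGTG is no evidence of a bound factor, and a part of Myc in these ratios was not tested.

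Promoters of 5 genes are shown to set genes with the motif beside those with the strongest differences. Each is the 250 bases before the start, with CACGTG in capitals. Nop2 (chr6:125131633-125131882, plus strand), Utp18 (chr11:93885767-93886016, minus strand) and Nol11 (chr11:107189382-107189631, minus strand) hold it 60, 20 and 43 bases before the start. Polr1b (chr2:129100746-129100995, plus strand) and Rrp9 (chr9:106477059-106477308, plus strand) hold none in this window.
Nop2: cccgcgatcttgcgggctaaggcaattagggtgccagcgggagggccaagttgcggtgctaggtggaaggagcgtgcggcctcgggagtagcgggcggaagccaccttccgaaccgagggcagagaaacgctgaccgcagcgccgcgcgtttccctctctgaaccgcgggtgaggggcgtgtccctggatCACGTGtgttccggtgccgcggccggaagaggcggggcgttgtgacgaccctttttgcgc
Utp18: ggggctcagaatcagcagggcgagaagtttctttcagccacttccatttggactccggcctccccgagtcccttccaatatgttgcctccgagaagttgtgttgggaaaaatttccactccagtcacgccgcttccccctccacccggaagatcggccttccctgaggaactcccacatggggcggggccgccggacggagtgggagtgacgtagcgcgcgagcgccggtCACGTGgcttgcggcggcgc
Nol11: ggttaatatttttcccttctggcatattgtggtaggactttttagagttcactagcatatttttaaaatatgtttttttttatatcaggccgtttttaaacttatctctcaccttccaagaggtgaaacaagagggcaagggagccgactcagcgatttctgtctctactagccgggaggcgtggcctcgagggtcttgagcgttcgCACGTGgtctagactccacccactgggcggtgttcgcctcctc
Polr1b: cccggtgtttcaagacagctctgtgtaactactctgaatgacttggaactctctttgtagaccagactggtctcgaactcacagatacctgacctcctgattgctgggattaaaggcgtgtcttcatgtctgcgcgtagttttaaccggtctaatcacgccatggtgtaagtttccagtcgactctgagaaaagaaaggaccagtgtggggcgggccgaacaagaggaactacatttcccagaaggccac
Rrp9: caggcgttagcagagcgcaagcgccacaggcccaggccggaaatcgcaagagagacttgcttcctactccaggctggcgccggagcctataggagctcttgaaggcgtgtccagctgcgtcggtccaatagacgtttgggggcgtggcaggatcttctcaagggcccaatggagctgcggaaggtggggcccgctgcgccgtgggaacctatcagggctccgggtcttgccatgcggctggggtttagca

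Other differences between the arrays ran beside that of the nucleolar genes, and their part in it was not tested. Genes of DNA replication were lower in early bulge in 23 of 24 cases, 16 of these by 1.5-fold or more (median -0.76). All 23 mitotic genes were lower, 18 of these by 1.5-fold or more (median -0.81). Of all measured genes 47.0% were lower, 12.8% by 1.5-fold or more. The proliferation marker Mki67 had 10648 in early bulge and 12884 in ORS (-0.28). Markers of dermal fibroblasts, which the red gate should leave out, were lower in early bulge in 11 of 12 measured cases, with a median log2 ratio of -3.58. Postn alone was higher, with 12201 in early bulge and 8010 in ORS, and the other 11 summed to 4866 in early bulge and 58994 in ORS. None of the 12 was under the floor in ORS, and Pdgfra and Mfap5 were under it in early bulge. Pericyte and smooth muscle markers were lower in 6 of 8 cases, with sums of 4050 in early bulge and 18858 in ORS, Myh11 under the floor in early bulge and Des under it in ORS. Markers of basal keratinocytes were higher in early bulge in 8 of 8 cases (93133 in early bulge and 46999 in ORS), and all 8 were above the floor on both arrays. Genes induced by tissue dissociation, such as Fos and Hspa1a, were higher in 12 of 12 cases (158649 in early bulge and 106880 in ORS). Melanocyte markers were lower in 4 of 9 cases (3180 in early bulge and 4126 in ORS). Of 7 immune markers 6 were under the floor on both arrays. Of 6 endothelial markers Pecam1, Cdh5 and Emcn were under it on both arrays, and the 3 measured ones were lower in early bulge. Tek had 70.0 in early bulge and 285.9 in ORS (-2.03), and Kdr, under the floor in early bulge, was lower by a bound of -0.41. Egfl7 was at -0.40, with probe sets from -1.44 to 0.89.

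**Figure D4:**
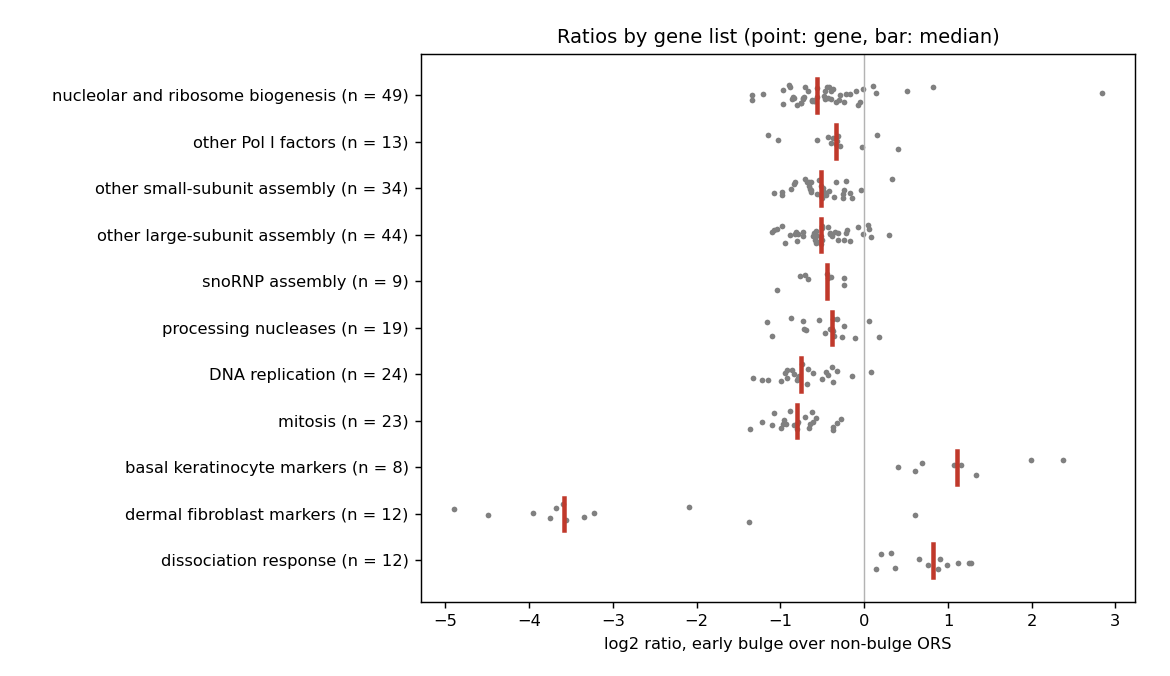
The log2 ratio, early bulge over non-bulge ORS, of each measured gene (grey points, bounds included at their bound) and the median of each list (red bars). The nucleolar genes and the other pathway lists have medians between -0.56 and -0.33, DNA replication and mitosis lie lower at -0.76 and -0.81, and basal keratinocyte markers and dissociation genes lie above 0.

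Across the arrays as a whole, the median signal was 102.2 in early bulge and 88.0 in ORS, and 62.0% of probe sets in early bulge and 58.0% in ORS reached the floor. The gate gene Sox9 had 4061 in early bulge and 676.1 in ORS, which checks the labels, although its 3 probe sets ran down to a log2 ratio of 0.30. Krt14, whose promoter drives the red reporter, had 14706 in early bulge and 6609 in ORS. The control probe sets gave a 3′ over 5′ signal of 3.79 in early bulge and 3.47 in ORS for Gapdh, and of 3.66 in early bulge and 3.24 in ORS for beta-actin.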

How the data were processed

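RNA of both sorted populations was labelled as biotinylated cRNA and hybridised to 1 array each, per the labels' protocols. The deposited table holds a linear signal intensity for each probe set. The submitters' processing notes name MAS5 and Affymetrix Expression Console, without versions. The 2% trimmed mean was 500 on both arrays, so each had been scaled to one target and differences in total RNA per cell are not visible. Scanner files and detection calls were not used here, and no coordinates come from the arrays.

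Gene names came from the platform annotation. All 50 symbols stand in RefSeq (GRCm38.p6) under the same gene ID. Gene counts leave out the 64 control probe sets and those with several symbols or none. Signals under the floor were set to it, and a ratio with 1 array at the floor is a bound. Computations used Python 3.11.15 with pandas 2.3.3, numpy 2.4.6 and statsmodels 0.14.6, and the procedure was tested on simulated arrays. The gene members and lists were chosen with earlier results of these data known. With 1 array a group, no test could be made and genes were counted by fold. The text gives every gene of the polymerase, guide particles, nucleolin, nucleophosmin, Bop1 and Pes1, up to 6 further genes with the largest ratios each way, those at the floor, those whose probe sets oppose by over 1.5-fold, up to 3 genes of each wider list, the 3 Myc genes, Sox9, Krt14 and Mki67. Alternatives were 3 scalings, a lower floor (20th percentile), a higher one (60th) and none, a pseudocount and the mean over probe sets. Others were probe sets with no suffix for shared or similar sequences, and single probe sets. Added after seeing the data was a setting with only genes above the floor on both arrays.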

Additional observations from a re-analysis of the deposited data

How the results depend on the processing

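The median log2 ratio of the nucleolar genes was between -0.78 (median centring) and -0.50 (each probe set on its own), so it stayed negative under every alternative, and without Nol3, Nol4 and Nol4l it was -0.57. Median centring raised the genes at least 1.5-fold lower in early bulge to 34 and those 2-fold lower to 11. Of all measured genes, 21.0% and 7.70% were then lower by these folds. Counting each probe set gave 43 of 100 at least 1.5-fold lower, 9 at least 2-fold lower and 5 at least 1.5-fold higher. The shares of all measured probe sets were 12.3%, 4.44% and 16.55%. The genes 1.5-fold higher were 1 with a floor at the 60th percentile, with a pseudocount or with only genes above the floor on both arrays. In these settings 13.8%, 14.8% and 15.7% of all measured genes were. With the mean over probe sets they were 0, against 17.0% of all measured genes. Those 2-fold higher were 0 with that mean, and also with only genes that both arrays measured above the floor. The share of all measured genes 2-fold higher was 7.30% in the main setting and was not computed for these 2. Genes at least 1.5-fold higher were 3 with a floor at the 20th percentile or none, where Nol4 was measured too. The shares of all measured genes there were 22.6% and 25.5%. The gene counts on the higher side thus turn on Nol3, Nol4l and Nol4, which are dim or under the floor on 1 or both arrays. Over 10 settings by gene, 41 genes were lower in early bulge wherever measured. Another 4 were higher (Nop53, Nol3, Nol4l and Nol4) and 5 changed direction (Polr1a, Polr1d, Rrp1, Rrp36 and Utp23). This count was not made over all measured genes, and every setting used the same arrays. Within single settings 87.8% to 93.9% of the nucleolar genes were lower, against 45.0% to 62.6% of all measured genes. Medians of the role groups and wider lists were recomputed in 23 cases and moved by less than the SD of 0.41 between probe sets over all genes in all 23. The largest move was that of nucleolin and nucleophosmin, to -0.68 with the mean over probe sets against -0.28, which exceeds the SD of 0.34 among the nucleolar genes. No paired analysis was possible because each group had 1 array. The number of arrays limits every value, and low MAS5 signals are noisy.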

Other observations

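Of the 119 measured genes in the wider lists, 9 were not lower in early bulge, and they are named here after their values were seen. Taf1b, a polymerase I initiation factor, had 406.1 in early bulge and 306 in ORS (log2 ratio 0.41). Ubtf was at 0.16, but its other probe set gave -0.13. Imp3, a partner of the U3 guide RNA, had 1126 in early bulge and 892.6 in ORS (0.33). Zfp622, Sbds and Eif6 act on the large subunit in its last, cytoplasmic steps, and had log2 ratios of 0.30, 0.08 and 0.05. Others of those late steps, the export adaptor Nmd3 and the GTPase Lsg1, were lower, at -0.50 and -0.82. Ddx56, Pop4 and Pop7 were at 0.04, 0.06 and 0.17. None of these 9 ratios exceeded the SD of 0.41 found between probe sets of one gene over all genes, Taf1b exceeded the 0.34 found among the nucleolar genes, and none had a replicate.

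The array also carries control probe sets for the small-subunit ribosomal RNA itself. They gave 12458, 9760 and 8791 in early bulge and 10579, 9400 and 8392 in ORS, for the 5′, middle and 3′ part of the RNA. Labelling from poly(A) tails does not measure the amount of ribosomal RNA, so these signals are given as values only.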
